A study of Mus musculus with 6 samples.

Results

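The genes described here are 28 genes of cholesterol synthesis and of its control by sterol regulatory element-binding proteins (SREBPs), taken by name out of the 30386 genes of the table. They comprise 9 enzymes from acetyl-CoA up to squalene, counting Ggps1 of a side branch, 10 enzymes from squalene onward, and 9 regulators. Of the regulators, 5 act in sterol sensing and SREBP control and 4 in sterol transport or storage. The list does not hold every gene of the pathway. The study compared epidermis from the back skin of mouse embryos at E18.5, shortly before birth, between 3 libraries labelled wild type (WT) and 3 labelled p63alphaKO, and its title asks whether changing the isoforms of p63, the master transcription factor of stratified epithelia, disturbs epidermal homeostasis. The name of the genotype points to loss of the alpha isoforms of p63. The labels do not say how the allele was made, which strain was used or whether replicates were separate embryos, so p-values measure the spread between these libraries, which may be technical. Reads came from the 3' ends of mRNAs, with 2564407 to 4474764 reads per library, and values are CPM, a gene's reads scaled to a common library total, which were not divided by gene length, so levels are not compared between genes.

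Cholesterol is built from acetyl-CoA by way of mevalonate and farnesyl diphosphate. Paired farnesyl units make squalene, which is closed into a ring and trimmed to cholesterol, while farnesyl and geranylgeranyl diphosphate also leave the pathway to modify proteins. When sterols in the endoplasmic reticulum run low, SCAP carries SREBPs to the Golgi, where they are cut and freed to switch on the synthesis genes. When sterols are plentiful, INSIG proteins hold SCAP back. In epidermis, cholesterol is a main lipid of the barrier between the dead surface cells, together with ceramides and fatty acids, and inherited defects in several of these enzymes cause skin disease.

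No member passed the test. Of the 28 genes, 26 had a mean of at least 10 CPM over the 6 libraries and were tested with limma, and 0 were called at a Benjamini-Hochberg adjusted p under 0.05, against 1.65% of all 7464 tested genes (0.469% higher and 1.18% lower in p63alphaKO). At an unadjusted p under 0.05 there were 2 members, Mvk and Insig1, against 15.6% of all tested genes. That count was between 1 and 5 in the alternatives, with 4 under TMM factors, and 1 with the replicate block and without WT replicate 3 or p63alphaKO replicate 3. It was 5 of 28 with no minimum level, where Idi1 was among them. edgeR and DESeq2 on the recovered reads also called 0 members, against 82 and 317 of all 7464 tested genes. At an unadjusted p under 0.05 each had 3 members (Mvk, Ggps1 and Sc5d with both tools). The share of all genes at that level was not counted for these 2 tools. On the log2(CPM + 1) scale the differences, p63alphaKO minus WT, here called log2 fold changes, ran from -0.70 to 0.39, with 11 positive and 15 negative and a median of -0.030. The median over all tested genes was -0.085. The sign of the members' median depends on the scaling: it was 0.050 with TMM factors, where 15 members were positive and 11 negative, and 0.015 with upper quartile factors.

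The absence of a call can be read against the width of the intervals. For 22 of the 26 members the 95% confidence interval of the difference lay within a 2-fold change in either direction, and for 13 it lay within 1.5-fold. Over all tested genes these shares were 65.7% and 19.6%. The exceptions to the former were Mvk, Tm7sf2, Srebf1 and Insig1. These intervals are not adjusted for the number of genes tested, so their width is not the limit of what could be called. The intervals of Mvk and Insig1 lay wholly on the lower side, yet neither gene was called (adjusted p = 0.123 and 0.287 by limma). Small differences, and some larger than the half-width of an interval, could go uncalled with 3 libraries a group.

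**Figure D1:**
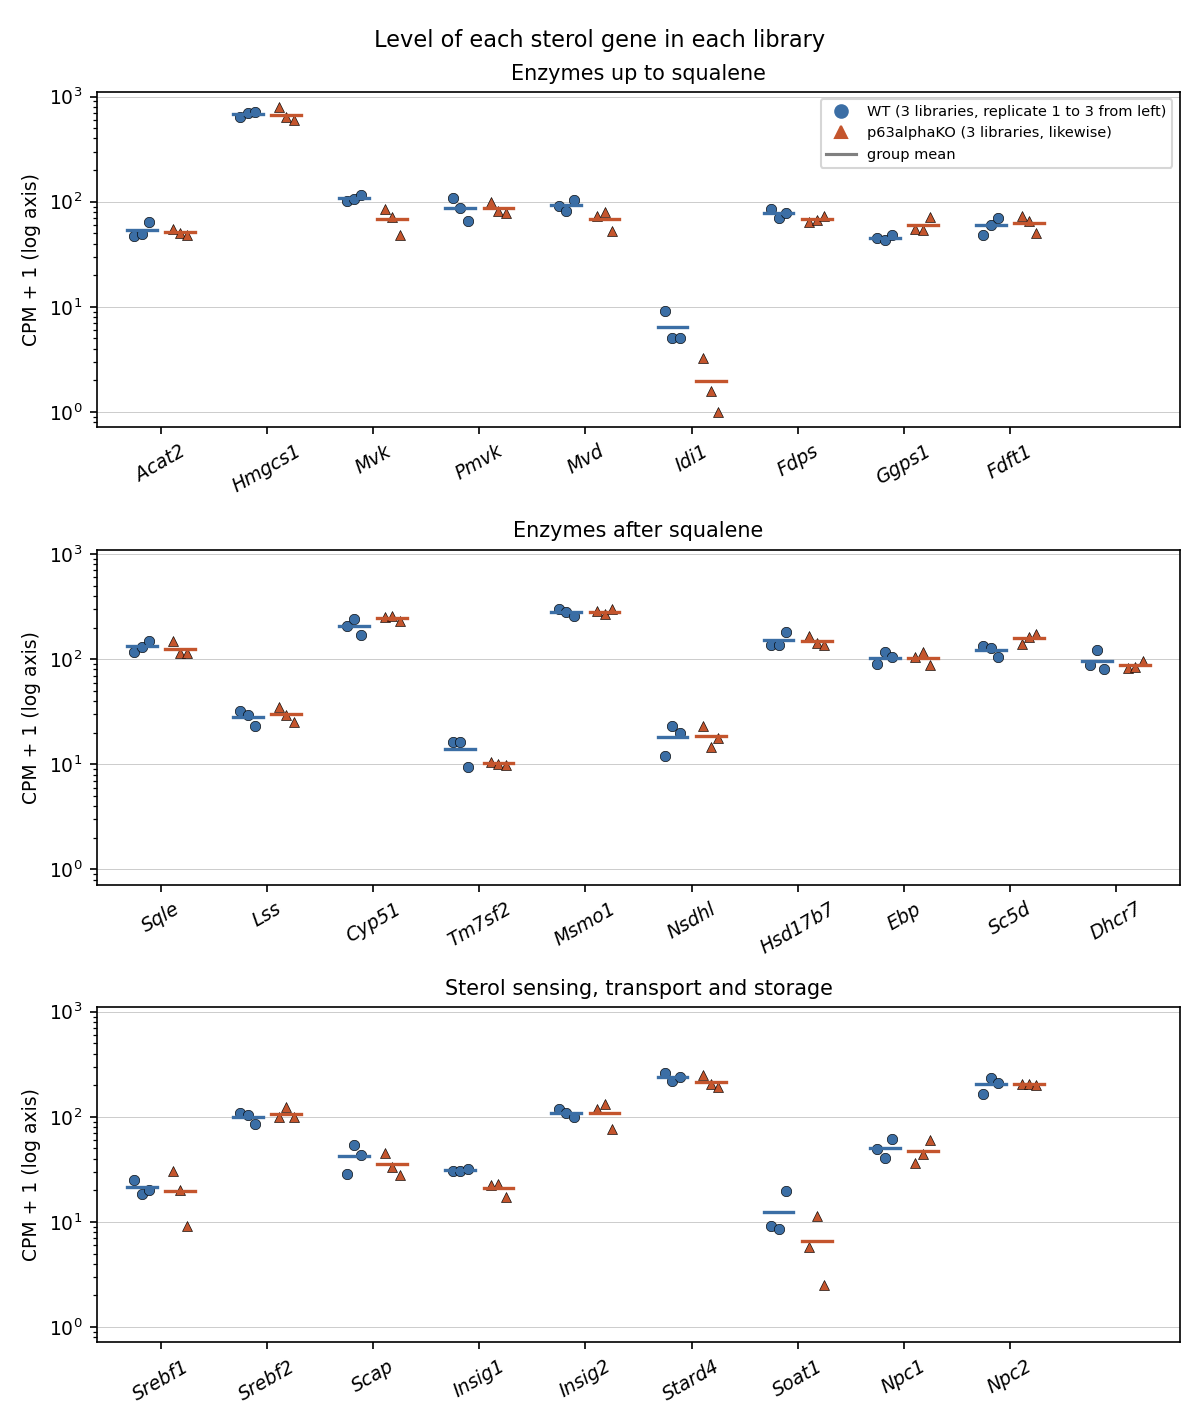
Level of each of the 28 genes in each library, on a log axis of CPM + 1; blue circles are WT, orange triangles p63alphaKO (replicates 1 to 3 from left to right in each group), and lines are group means. The symbols of the genotypes interleave for most genes and stand apart for Mvk, Mvd, Insig1, Ggps1, Sc5d and Idi1.

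Sequences before the transcription start were examined because SREBPs are known to act at promoters together with the CCAAT-binding factor NF-Y. RefSeq promoters (GRCm38.p6, 250 bases before to 50 after each start) were found for 23 members, and Fdps, Fdft1, Sqle, Stard4 and Npc1 were not matched. A CCAAT box, searched as CCAAT on both strands (ATTGG on the reverse), stood in at least 1 promoter of 21 of the 23. The share was 41.1% of all 27025 genes with a RefSeq promoter. Counted by promoter, 22 of 31 held a box, against 37.4% of all 32851. Over all promoters of a gene, 13 members held 2 or more boxes, Srebf1 with 1 in each of 2 promoters. The share of all genes with 2 or more was not counted. The members without a match were Acat2 and Scap. The motif TCACNCCAC, a core of the sterol regulatory element, was found on either strand only in Hmgcs1 among the members, and in 1.44% of all genes. The GC-box letters GGGCGG likewise stood in 21 of the 23 members, against 38.2% of all genes. The genes compared were not limited to those tested here, so neither share is shown to be particular to sterol genes. A match is a run of letters and not evidence of binding, and SREBP sites that differ from these letters or lie outside the window were not searched.

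The stretches below, 5′ to 3′ on the gene's own strand, are from Hmgcs1, shown for its sterol element match, and from the 5 tested members whose groups did not overlap. They are drawn from the 220 bases before the RefSeq start and leave out annotated exons. Capitals mark CCAAT or ATTGG, and in Hmgcs1 also TCACCCCAC. Hmgcs1 is at chr13:119690131-119690350 (plus strand), Mvk at chr5:114444061-114444268 (plus), Mvd at chr8:122443423-122443642 (minus), Ggps1 at chr13:14063490-14063603 (minus), Sc5d at chr9:42264301-42264520 (minus) and Insig1 at chr5:28071192-28071362 (plus).
Hmgcs1: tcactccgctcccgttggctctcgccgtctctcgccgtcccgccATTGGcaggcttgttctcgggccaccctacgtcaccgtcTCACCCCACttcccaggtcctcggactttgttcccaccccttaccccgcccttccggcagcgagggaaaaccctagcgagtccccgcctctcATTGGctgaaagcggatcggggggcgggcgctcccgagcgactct
Mvk: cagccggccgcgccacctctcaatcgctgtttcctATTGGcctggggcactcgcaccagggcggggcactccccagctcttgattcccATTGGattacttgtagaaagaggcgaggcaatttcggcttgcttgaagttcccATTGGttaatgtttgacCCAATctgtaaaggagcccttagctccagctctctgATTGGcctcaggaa
Mvd: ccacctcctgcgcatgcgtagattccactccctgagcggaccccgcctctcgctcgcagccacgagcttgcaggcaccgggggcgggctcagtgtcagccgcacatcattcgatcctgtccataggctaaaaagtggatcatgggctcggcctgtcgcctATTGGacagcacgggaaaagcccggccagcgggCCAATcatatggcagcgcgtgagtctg
Ggps1: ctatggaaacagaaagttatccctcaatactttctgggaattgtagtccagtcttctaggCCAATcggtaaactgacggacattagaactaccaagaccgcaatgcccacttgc
Sc5d: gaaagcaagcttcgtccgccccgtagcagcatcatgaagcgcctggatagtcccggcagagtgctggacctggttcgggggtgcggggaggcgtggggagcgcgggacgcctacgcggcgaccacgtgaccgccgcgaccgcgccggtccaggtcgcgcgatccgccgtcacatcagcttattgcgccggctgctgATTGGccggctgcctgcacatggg
Insig1: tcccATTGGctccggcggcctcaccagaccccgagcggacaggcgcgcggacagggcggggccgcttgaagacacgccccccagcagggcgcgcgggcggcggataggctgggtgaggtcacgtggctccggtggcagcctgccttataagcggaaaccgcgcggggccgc
The stretch of Mvk holds 1 CCAAT and 4 ATTGG, that of Mvd 1 of each, that of Hmgcs1 2 ATTGG, and those of Ggps1, Sc5d and Insig1 1 box each. The Ggps1 stretch has only 114 bases after exons were left out, and its 220 bases before the start hold 3 boxes, so these counts are not compared between genes.

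Among the enzymes up to squalene, Mvk had the lowest adjusted p of any member. Mvk encodes mevalonate kinase, which puts the first phosphate on mevalonate (chromosome 5, 114444269 to 114460591, plus strand, mm10). It was at 100, 105 and 115 CPM in WT replicates 1, 2 and 3 and at 83.6, 70.2 and 47.4 CPM in p63alphaKO replicates 1, 2 and 3. All p63alphaKO libraries lay below all WT libraries, with the WT values close together and the p63alphaKO values spread 1.76-fold. The log2 fold change was -0.70 (SE 0.22, 95% confidence interval -1.17 to -0.23), which is 1.62-fold lower, with an adjusted p of 0.123 by limma. It stayed negative in each alternative, between -0.87 and -0.47, the smaller of these without p63alphaKO replicate 3.

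Mvd, the decarboxylase that completes isopentenyl diphosphate (chromosome 8, 122433601 to 122443422, minus strand), followed the same order at a smaller size. Its levels were 90.8, 80.2 and 103 CPM in WT, against 72.8, 79.2 and 52.2 CPM in p63alphaKO. The groups touched almost end to end, since WT replicate 2 and p63alphaKO replicate 2 differed by less than 1 CPM. Its log2 fold change was -0.43 (SE 0.21, interval -0.88 to 0.020, adjusted p = 0.346), and it was -0.25 without p63alphaKO replicate 3. Pmvk, the kinase that acts between Mvk and Mvd, had 107, 86.9 and 64.5 CPM in WT, against 98.8, 81.0 and 77.8 CPM in p63alphaKO, with a difference of 0.017 (interval -0.45 to 0.48). The p63alphaKO values of Pmvk lay inside the WT range.

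Ggps1 showed the opposite order. It makes geranylgeranyl diphosphate, the lipid attached to small GTPases, and so stands on a side branch (chromosome 13, 14050659 to 14063488, minus strand). Its levels were 44.0, 42.7 and 46.9 CPM in WT, against 53.6, 52.7 and 71.0 CPM in p63alphaKO. Each p63alphaKO library was above each WT library, and p63alphaKO replicate 3 was the highest. For Ggps1 the log2 fold change was 0.39 (SE 0.21, interval -0.062 to 0.84, adjusted p = 0.405), and 0.25 without that library. Exons of Ggps1 overlap those of Arid4b on the other strand, though not in its last 500 exonic bases.

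Idi1, which interconverts the isoprene units, had too few reads to be tested. It had 21, 18 and 13 reads in the WT libraries (8.18, 4.02 and 4.09 CPM) and 8, 2 and 0 reads in the p63alphaKO libraries (2.26, 0.58 and 0 CPM). A count of 0 in p63alphaKO replicate 3 allows a level of up to 0.895 CPM, counting error only. The groups did not overlap, and the exact permutation test (two-sided, n = 3 per group) gave p = 0.1, the smallest that 3 against 3 can give. In the limma fit without a minimum level the unadjusted p was 0.0099 and the adjusted p 0.218.

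For the remaining enzymes of this stretch the groups overlapped. Hmgcs1, the HMG-CoA synthase (chromosome 13, 119690379 to 119708260, plus strand), rested on 1625 to 3122 reads per library, at 633, 697 and 718 CPM in WT, against 791, 632 and 591 CPM in p63alphaKO. The p63alphaKO values fell on both sides of the WT values. Its log2 fold change was -0.033 with an interval of -0.37 to 0.31 (adjusted p = 0.954), among the narrowest of the members. Acat2, the thiolase that joins acetyl-CoA units, was at 52.8 ± 9.17 CPM in WT, against 50.4 ± 3.61 CPM in p63alphaKO (mean ± SD, n = 3). Fdps, which makes farnesyl diphosphate, was at 76.3 ± 7.44 and 66.8 ± 4.59 CPM (log2 fold change -0.19, interval -0.59 to 0.22). Fdft1, the squalene synthase, was at 58.6 ± 10.9 and 62.0 ± 11.3 CPM. The last 500 exonic bases of Fdft1 all overlap Ctsb, a gene on the other strand at a mean of 131 CPM, and 275 of those of Fdps overlap the gene model Gm43738 on the same strand, so both values are uncertain. Summed over the 9 genes, with Ggps1 of the side branch among them, the stretch took 1160, 1193 and 1259 CPM in WT. The sums were 1291, 1095 and 1009 CPM in p63alphaKO, and the p63alphaKO libraries enclosed the WT range.

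After squalene, 10 of 10 enzymes were tested, 6 with positive and 4 with negative differences, and the median was 0.011. Sc5d, the desaturase that acts close to the end of the pathway (chromosome 9, 42251595 to 42264256, minus strand), was the gene without overlap. It was at 132, 127 and 103 CPM in WT, against 138, 161 and 173 CPM in p63alphaKO. The gap between the groups was small, since WT replicate 1 and p63alphaKO replicate 1 lay next to each other. The log2 fold change was 0.38 (SE 0.18, interval -0.0072 to 0.77, 1.30-fold, adjusted p = 0.329).

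Cyp51, the demethylase that acts on lanosterol, came next among these enzymes in the same direction. Its levels were 207, 239 and 171 CPM in WT, against 252, 259 and 233 CPM in p63alphaKO, so that only WT replicate 2 reached into the p63alphaKO range. Its difference was 0.28 (interval -0.087 to 0.65, adjusted p = 0.465), and 0.16 without WT replicate 3. Of its last 500 exonic bases, 166 overlap Akap9 on the other strand, which had a mean of 210 CPM. With TMM or upper quartile scaling the groups of Cyp51 did not overlap.

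Tm7sf2, a sterol reductase, had few reads (27 to 68 per library) and a wide interval. Its levels were 15.2, 15.2 and 8.50 CPM in WT, against 9.60, 9.03 and 8.95 CPM in p63alphaKO. WT replicate 3 lay below all p63alphaKO libraries while the other two WT libraries lay above them. Its difference was -0.41 with an interval of -1.26 to 0.43 (adjusted p = 0.681). It also shares exons with Vps51 on the same strand, outside its last 500 bases.

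For the other seven enzymes the groups overlapped and the differences were small. Sqle, the epoxidase that opens this stretch and is known as a rate-controlling step, was at 117, 131 and 149 CPM in WT, against 147, 113 and 113 CPM in p63alphaKO (log2 fold change -0.090, interval -0.49 to 0.31). Its values overlapped across most of their range. Msmo1, a methyl sterol oxidase, had the narrowest interval, at 279 ± 20.2 CPM in WT, against 282 ± 15.4 CPM in p63alphaKO (0.017, interval -0.32 to 0.35). Lss, the lanosterol synthase, was at 27.4 ± 4.53 and 28.9 ± 5.03 CPM. Hsd17b7, a sterol ketone reductase, was at 150 ± 25.96 and 147 ± 16.3 CPM, and Ebp, a sterol isomerase, at 102 ± 13.5 and 103 ± 14.0 CPM. Nsdhl, a sterol dehydrogenase, had only 28 to 100 reads per library, was at 17.4 ± 5.86 and 17.6 ± 4.19 CPM, and had an interval of -0.68 to 0.78. Dhcr7, which can carry out the closing reduction to cholesterol, was at 96.0 ± 22.0 and 87.3 ± 7.13 CPM (-0.12, interval -0.55 to 0.32). Together the 10 enzymes took 1123, 1215 and 1094 CPM in WT, against 1239, 1191 and 1183 CPM in p63alphaKO, and WT replicate 2 lay within the p63alphaKO range.

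**Figure D2:**
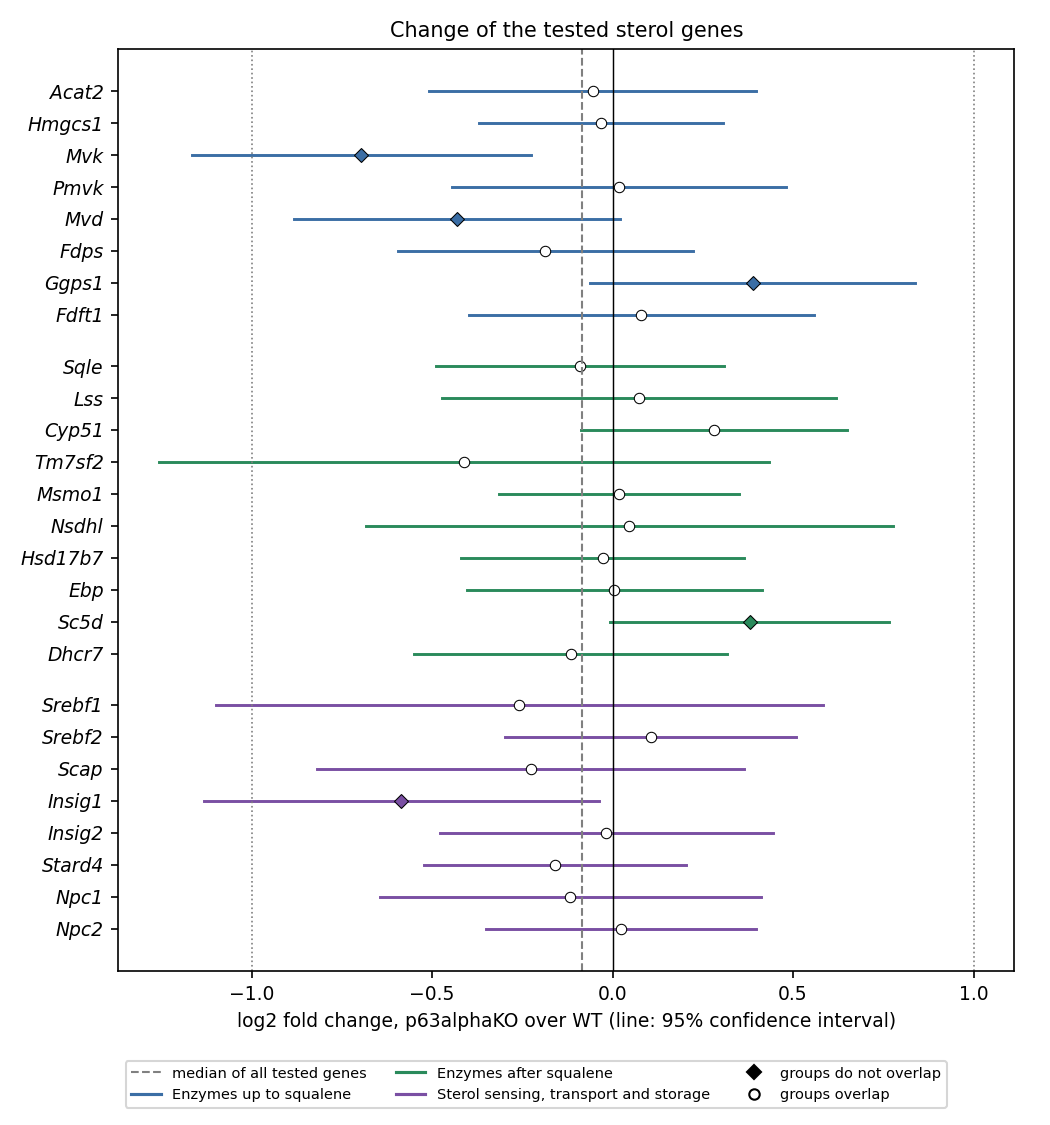
Log2 fold change of p63alphaKO over WT for the 26 tested members, with 95% confidence intervals from limma, grouped by role; filled diamonds mark genes whose groups do not overlap, dotted lines a 2-fold change and the dashed line the median of all tested genes (-0.085). The intervals of Mvk and Insig1 lie below 0, and 22 of the 26 lie within the dotted lines.

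Among the genes of sterol sensing and SREBP control, Insig1 was lower in every p63alphaKO library while its relative Insig2 was not. Insig1, an anchor of SCAP that is itself a classic SREBP target (chromosome 5, 28071363 to 28078662, plus strand), was at 29.6, 29.7 and 30.5 CPM in WT, against 21.5, 21.8 and 16.1 CPM in p63alphaKO. The WT libraries lay within 1 CPM of each other, and 54 to 133 reads stood behind each value. Counting error at the 76, 133 and 97 reads of WT is larger than that spread, so the closeness does not measure precision. The log2 fold change was -0.59 (SE 0.26, interval -1.13 to -0.039, 1.5-fold lower), with an adjusted p of 0.287 by limma, and it lay between -0.66 and -0.45 in the alternatives.

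Insig2, the less SREBP-dependent of the pair, was at 117, 108 and 97.6 CPM in WT, against 117, 132 and 76.1 CPM in p63alphaKO (log2 fold change -0.018, interval -0.48 to 0.44). It was spread 1.73-fold among the p63alphaKO libraries, with replicate 3 the lowest, and without that library its difference was 0.22.

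The transcripts of the SREBPs and of SCAP gave no call. Srebf2, whose protein is the main activator of sterol synthesis, was at 109, 102 and 85.3 CPM in WT, against 99.4, 122 and 97.5 CPM in p63alphaKO (log2 fold change 0.11, interval -0.30 to 0.51). The groups overlapped broadly. Srebf1, which mainly drives fatty acid synthesis, was at 24.2, 17.4 and 19.2 CPM in WT, against 29.4, 18.9 and 8.05 CPM in p63alphaKO. Its p63alphaKO libraries spanned 3.65-fold and enclosed the WT range, so the difference of -0.26 (interval -1.10 to 0.58) became 0.22 without p63alphaKO replicate 3. Scap, the escort of the SREBPs, was at 27.7, 52.7 and 42.5 CPM in WT, against 44.0, 32.3 and 26.8 CPM in p63alphaKO (-0.23, interval -0.82 to 0.37). In both genotypes Scap varied by over 1.5-fold between libraries. Of the last 500 exonic bases of Srebf1, 109 overlap Rai1 on the other strand.

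Of the 4 genes of sterol transport and storage, 3 were tested and their groups overlapped. Stard4, which carries cholesterol between membranes, was at 239 ± 19.5 CPM in WT, against 215 ± 30.7 CPM in p63alphaKO (log2 fold change -0.16, interval -0.52 to 0.20). Npc1 and Npc2, the pair that lets cholesterol out of lysosomes, were at 49.5 ± 10.2 and 202 ± 35.5 CPM in WT, against 46.0 ± 12.4 and 203 ± 4.16 CPM in p63alphaKO, with differences of -0.12 and 0.023. Npc1 overlaps Rmc1 on the other strand over 192 of its last 500 exonic bases. Soat1, which esterifies cholesterol for storage, was below the minimum for testing, at 8.18, 7.59 and 18.9 CPM in WT, against 4.80, 10.5 and 1.49 CPM in p63alphaKO. These rest on 5 to 60 reads per library, and the means were 11.6 and 5.59 CPM, with groups that overlapped (exact permutation test, two-sided, n = 3 per group, p = 0.3).

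Counted together, 5 of the 26 tested members (19.2%) had groups that did not overlap, against 21.0% of all tested genes. Of these, 2 were higher in p63alphaKO (Ggps1 and Sc5d), against 7.6% of all tested genes, and 3 were lower (Mvd, Mvk and Insig1), against 13.4%. These shares are near the background. With TMM factors the set became Mvk and Insig1 below and Ggps1 and Cyp51 above, and with upper quartile factors Sc5d joined them. Mvk, Insig1 and Ggps1 were without overlap under all 3 scalings.

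The libraries of a genotype did not move as blocks. Within p63alphaKO, replicate 3 held the lowest value for 18 of 26 members (69.2%), where 50.5% of all tested genes had their lowest p63alphaKO value in that library. Mvk, Mvd, Insig1, Insig2, Srebf1 and Scap were all lowest there, while Ggps1, Sc5d, Npc1 and Dhcr7 were highest there. That library also had the fewest genes above 0, 12416 against 12905 to 13759 in the others, and the part of this in the member values was not tested. Within WT, replicate 3 and replicate 1 each held the highest value for 10 members. Acat2, Hmgcs1, Mvk, Fdft1, Sqle and Hsd17b7 were highest in WT replicate 3 among WT and in p63alphaKO replicate 1 among p63alphaKO, a profile that 6 of 26 members (23.1%) and 18.1% of all tested genes had. All 28 members summed to 3069, 3219 and 3155 CPM in WT, against 3337, 3078 and 2866 CPM in p63alphaKO, so the p63alphaKO libraries lay both above and below WT.

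**Figure D3:**
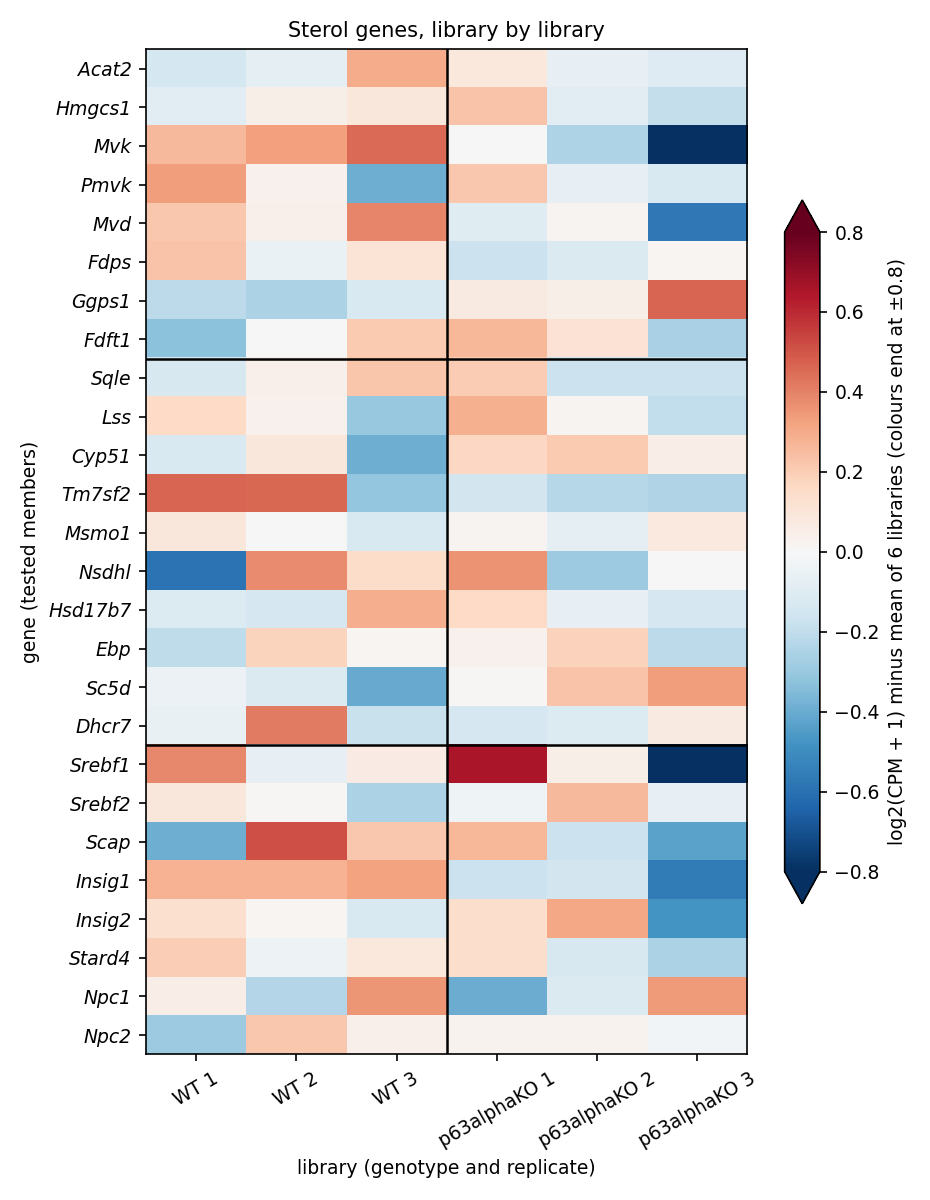
Each tested member in each library, as log2(CPM + 1) minus the gene's mean over the 6 libraries; red is higher, blue lower, colours end at ±0.8, and black lines part the genotypes and the roles. Mvk and Insig1 are red in all WT columns and pale or blue in the p63alphaKO columns, and the column of p63alphaKO replicate 3 holds the lowest p63alphaKO value of 18 of the 26 genes.

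Values from the whole table that bear on these comparisons are as follows. Trp63, the targeted gene, was at 63.9, 71.7 and 87.2 CPM in WT and at a mean of 142 ± 5.15 CPM (n = 3) in p63alphaKO, a log2 fold change of 0.93 (adjusted p = 0.0192 by limma, lost without any 1 of the p63alphaKO libraries, where the difference was 0.91 to 0.96), and a count per gene does not check the loss of an isoform. Suprabasal keratinocyte markers summed to 113372 to 127014 CPM in WT, against 115390 to 121715 CPM in p63alphaKO, with 0 of 9 called by limma, edgeR or DESeq2 and 0 at an unadjusted p under 0.05. Of 7 basal keratinocyte markers 6 had positive differences (median 0.31), and Krt15, a basal keratin, was called lower by all 3 tools (log2 fold change -1.80, adjusted p = 0.00164 by limma). Their sums overlapped, at 3449 to 6237 CPM for WT and 4617 to 5728 CPM for p63alphaKO. Markers of several other cell types were lower in p63alphaKO, and no gene of the fibroblast, muscle, erythroid, endothelial or adipocyte lists was at 0 in all libraries. Fibroblast markers were called lower by limma for 11 of 12 tested of 14 listed, with sums of 2541 to 5533 CPM in WT, against 489 to 872 CPM in p63alphaKO. Muscle markers were called lower by limma for 6 of 9 tested of 10 listed. Their sums were 453, 2984 and 450 CPM in WT replicates 1, 2 and 3, so the upper end rests on WT replicate 2, against 63.5 to 122 CPM in p63alphaKO. Erythroid markers were called lower by limma for 3 of 4 tested of 8 listed, and for 0 by edgeR and DESeq2, with 4 and 2 at an unadjusted p under 0.05 (1903 to 3441 and 559 to 1769 CPM). Endothelial and adipocyte markers had no tested member and sums of 16.0 to 44.8 and 20.3 to 47.5 CPM in WT, against 3.66 to 7.86 and 4.17 to 13.1 CPM in p63alphaKO. Melanocyte markers summed higher in p63alphaKO (343 to 481 CPM against 201 to 332 CPM in WT), with 0 of 4 called by limma and edgeR (1 each at an unadjusted p under 0.05) and 1, Dct, by DESeq2. The sums of sebaceous and of immune markers overlapped between genotypes, with 1 gene of each list (Mc5r and Cd3e) at 0. In bulk libraries, fewer cells of a type and less RNA per cell cannot be told apart. The part of these other cells in the values of Mvk, Mvd, Insig1 and Idi1, which were lower in the same libraries, was not tested.

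Genes next to the pathway gave no call by limma either. Among 11 tested of 15 genes that cut, hold or degrade SREBPs and their regulators, 3 had positive and 8 negative differences, with a median of -0.44 against -0.085 for all tested genes, 0 called and 4 at an unadjusted p under 0.05, against 15.6% of all tested genes (2 with edgeR and 2 with DESeq2, again 0 called). The groups did not overlap for 5 of the 11 (45.5%), 1 higher and 4 lower, against 21.0% of all tested genes. Mbtps1, the site-1 protease that makes the initial cut in SREBPs in the Golgi, was at 74.4, 60.1 and 77.5 CPM in WT, against 48.8, 45.1 and 35.8 CPM in p63alphaKO. All p63alphaKO libraries were below all WT libraries, and the log2 fold change was -0.70 (interval -1.16 to -0.24, adjusted p = 0.112, between -0.81 and -0.57 in the alternatives). Pgrmc1, a membrane protein that binds heme and sterol enzymes, had a difference of -0.49 (adjusted p = 0.304). Fbxw7, the ubiquitin ligase subunit that marks nuclear SREBPs for decay, was at 66.5 ± 8.22 CPM in WT, against 92.3 ± 6.89 CPM in p63alphaKO (0.47, adjusted p = 0.239), again without overlap.

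Of 18 fatty acid synthesis genes, many of them driven by Srebf1, 11 were tested, with 3 positive and 8 negative differences and a median of -0.16. Over all tested genes, 3002 differences were positive and 4462 negative, with a median of -0.085, which was -0.0063 with TMM factors. The medians of the neighbouring lists were not computed under other scalings. Fasn, the fatty acid synthase, was at 134, 167 and 148 CPM in WT, against 121, 105 and 99.6 CPM in p63alphaKO, which did not overlap (-0.46, adjusted p = 0.222). Aacs, which activates acetoacetate for sterol and fatty acid synthesis, had a difference of -0.80 and Acaca, the acetyl-CoA carboxylase, one of -0.57 (adjusted p = 0.2497 and 0.348). At an unadjusted p under 0.05 there were 2 of these genes (18.2%) by limma, against 15.6% of all tested genes. There was 1 by edgeR and 0 by DESeq2, and 0 were called by any. The groups did not overlap for 2 of the 11 (18.2%), against 21.0% of all tested genes. In the branches that use isoprenoids, 11 of 14 genes were tested, 2 positive and 9 negative, with a median of -0.17 against -0.085 for all tested genes. There were 0 at an unadjusted p under 0.05 by any of the 3 tools. The groups did not overlap for 1 of the 11 (9.09%), against 21.0% of all tested genes. Fnta, a subunit of protein prenyltransferases, had a difference of -0.28, Coq2, of ubiquinone synthesis, one of -0.50, and Rabggta, which attaches geranylgeranyl groups to Rab proteins, one of 0.32 (adjusted p = 0.516, 0.533 and 0.633).

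In the list of liver X receptor (LXR), efflux and oxysterol genes, only some of which answer to surplus sterol, 12 of 26 were tested. Of these, 6 were positive and 6 negative, with a median of 0.012. Gramd1c, which moves cholesterol from the plasma membrane inward, was at 90.8, 80.2 and 42.8 CPM in WT, against 103, 115 and 156 CPM in p63alphaKO. The groups did not overlap, with WT replicate 3 lowest and p63alphaKO replicate 3 highest. Its log2 fold change was 0.85 (interval 0.28 to 1.41, adjusted p = 0.116) and 0.52 without WT replicate 3. Abcg1, a sterol exporter and LXR target, was at 8.57, 4.24 and 3.78 CPM in WT, against 8.75, 15.4 and 21.8 CPM in p63alphaKO, with WT replicate 1 and p63alphaKO replicate 1 nearly equal. Its log2 fold change was 1.31 (interval 0.26 to 2.35, adjusted p = 0.207 by limma), and DESeq2 was the only tool to call it (adjusted p = 0.0464, against 0.143 by edgeR). Vldlr, a lipoprotein receptor, had a difference of -0.94 (adjusted p = 0.304). There were 3 genes of this list (25%) at an unadjusted p under 0.05 by limma, against 15.6% of all tested genes, and 2 each by edgeR and DESeq2. The groups did not overlap for 25% of the 12, against 21.0% of all tested genes. Of the 4 genes of sterol sulfate metabolism, 2 were tested and none had an unadjusted p under 0.05. Sult2b1, the cholesterol sulfotransferase, was at 113 ± 13.8 and 120 ± 15.6 CPM (0.085, adjusted p = 0.879), and Papss1, which supplies the sulfate donor, had a difference of -0.26 (adjusted p = 0.564), without overlap.

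**Figure D4:**
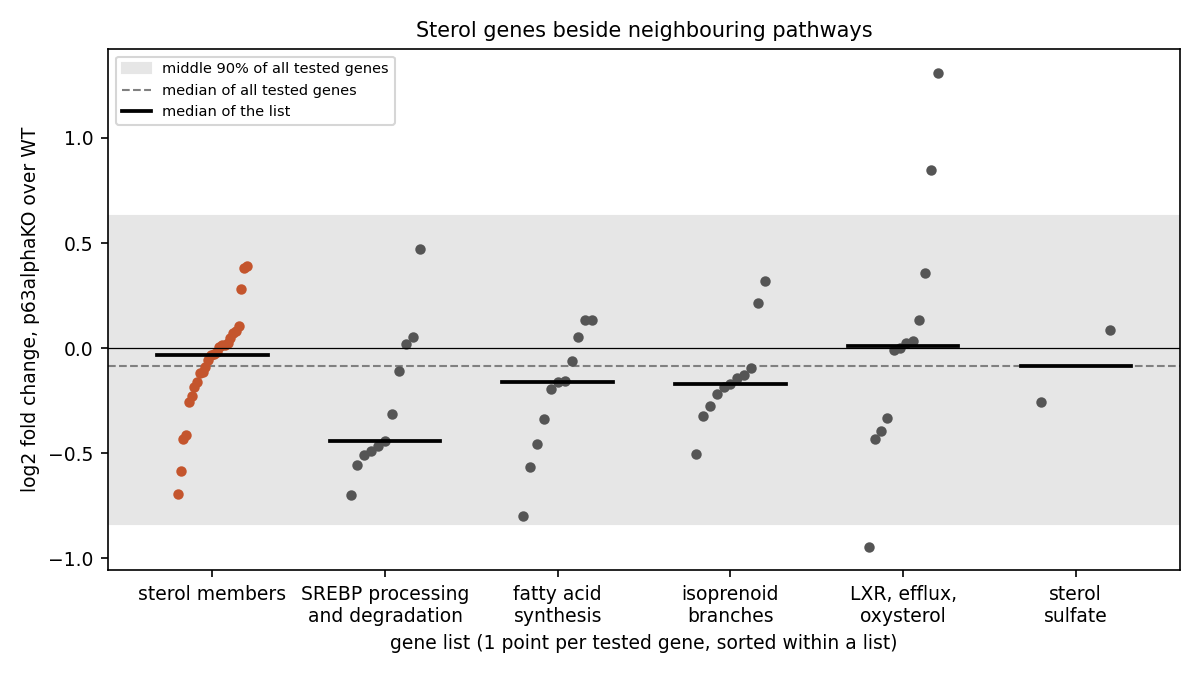
Log2 fold change of p63alphaKO over WT for each tested gene of the sterol members and of 5 neighbouring lists, sorted within a list; thick lines are list medians, the dashed line the median and the grey band the middle 90% of all tested genes (-0.84 to 0.63). All sterol members lie inside the band, and Gramd1c, Abcg1 and Vldlr lie outside it.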

How the data were processed

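The 6 epidermis libraries, 3 per genotype, were read from mRNA 3' ends. The submitters' processing notes name STAR, HTSeq and mm10, and no source used here gives versions, annotation or strand setting. The table deposited by the authors holds CPM, with column sums of 999157 to 999401. Each library's values were whole multiples of what 1 read is worth, within 0.0055 CPM, for 100% of values, which gave its reads. A mean of 10 CPM is 25.7 to 44.8 reads per library.

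A two-sided limma-trend fit on log2(CPM + 1) had genotype as its only term (R 4.3.3 with limma 3.58.1). It took in the 7464 genes averaging 10 CPM or more, and p-values were adjusted over all of them by the Benjamini-Hochberg method. Counts recovered as whole reads gave edgeR's quasi-likelihood test 82 called genes. edgeR 4.0.16 and DESeq2 1.42.0 on the recovered reads were alternatives, with other pseudocounts, minimum levels and scalings, a replicate block and each library left out. The limma and edgeR steps were also run on simulated data, and no statement here rests on that run. Positions are from GENCODE mouse release 21 (mm10), 1-based, and all 28 members were found there.

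The members and lists were chosen with earlier results of these data known. All members are named, and of each neighbouring list up to 3 tested genes with the smallest p.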

Additional observations from a re-analysis of the deposited data

How the results depend on the processing

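No sterol member was called in the main comparison or in any of the 15 alternatives, and 11 of the 26 tested members kept the sign of their difference in all of those that tested them, among them Mvk, Mvd, Insig1, Ggps1, Sc5d and Cyp51. The count of genes called over the whole table was 123. It was 36 with a minimum mean of 50 CPM, 317 with DESeq2, and between 37 and 186 with 1 library left out (186 without WT replicate 1, and 46, 67 and 37 without p63alphaKO replicates 1, 2 and 3). Higher and lower calls numbered 35 and 88, 42 and 73 with upper quartile factors, 152 and 165 with DESeq2, 90 and 96 without WT replicate 1, 56 and 87 without WT replicate 2, and 6 and 40, 6 and 61, and 3 and 34 without p63alphaKO replicates 1, 2 and 3. The members' median of -0.030 was 0.066 with DESeq2, beside a median of -0.0016 for all genes, and the cause was not tested. It lay between -0.11 and 0.037 with 1 library left out. With the replicate number as a block, 127 genes and 0 members were called and the median was -0.030. The correlation of the deviations of same-numbered libraries was -0.023, 0.066 and -0.11, and that of the other pairs ran from -0.13 to 0.15. The labels do not say what the number stands for, and these values cannot show whether same-numbered libraries share a litter, day or batch. Trp63 lost its call without p63alphaKO replicate 1, 2 or 3 (adjusted p = 0.0998, 0.0971 and 0.0854), with log2 fold changes of 0.93, 0.91 and 0.96 against 0.93, and kept it with edgeR and DESeq2 (adjusted p = 0.0123 and 3.76e-05). Idi1, Soat1, Tm7sf2, Srebf1 and Nsdhl had fewer than 30 reads in their lowest library, which limits what could be detected.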
